A study of Mus musculus with 5 samples.

Results

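The T-box and forkhead transcription factor genes Tbx2, Tbx3, Tbx5, Tbx15, Tbx18, Foxc1, Foxc2, Foxd1, Foxf1 and Foxf2, were described in mouse neural stem cells (NSCs) and in STO cells by RNA-seq. These 10 genes were picked by symbol from a list of positional factors, and all 10 were found among the 25414 genes of the deposited tables. The NSCs were primary cells from the cortex of E12.5 embryos, cultured as a monolayer on laminin with EGF and bFGF, at passages 5 to 8 (n = 2). STO cells are an immortal line of SIM mouse embryonic fibroblasts, grown in serum for more than 30 passages and often used as feeder cells (n = 3). The labels give C57BL/6 as the strain of both, and no genetic change or further treatment. For STO cells this differs from the paper, which describes them as from SIM mouse embryos and resistant to thioguanine and ouabain. STO cells are 1 cell line in 1 medium and NSCs another culture in another medium. Cell type, line, strain of origin and medium therefore cannot be told apart. Nothing in the labels says whether the replicates came from separate cultures, so the p-values measure the spread between these samples, which may be technical.

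T-box factors bind DNA through the T-box domain, and forkhead factors through the winged-helix forkhead domain. Several members of both families are known as positional factors: in the embryo they mark where along the body, the limbs, the gut or the face a mesenchymal cell lies, and cultured fibroblasts can keep part of such a code. TBX2 and TBX3 are mostly repressors, active in limb, heart and mammary gland. TBX5 specifies the forelimb and the heart. TBX15 and TBX18 are close relatives that act in skeletal, dermal and urogenital mesenchyme. FOXC1 and FOXC2 act in somites, vessels and the meninges, FOXD1 in the stroma of the kidney, and FOXF1 and FOXF2 in mesenchyme that receives Hedgehog signals, as in gut and lung.

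Values are in FPKM, the fragments of a transcript scaled by its length and by the depth of the library, so that levels of different genes can be set side by side. The fragments implied by the width of the intervals deposited with the values summed to 15200000 to 22300000 per library. These sums can lie well below the true library sizes, because an interval wider than counting error implies too few fragments. Replicates of a cell type had Pearson's r of 0.994 to 0.995 across genes. The labelled cell types carried their markers: all 9 neural stem cell markers were at 1 FPKM or more in both NSC replicates and summed to at most 0.50 FPKM in each STO replicate, while 7 of 8 fibroblast markers were at 1 FPKM or more in every STO replicate, and Lum was not. In NSCs the fibroblast markers Col3a1, Dcn and Lum were listed at 0, and Fn1 was the only one of the 8 above 1 FPKM in both replicates. Markers of endothelium and microglia summed to at most 0.58 FPKM in any sample, and those of neurons to at most 15.4; astrocyte markers summed to 64.5 FPKM in each NSC replicate and at most 0.22 in STO cells.

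Of the 10 genes, 8 were expressed at more than 1 FPKM in every STO replicate, against 41.6% of all genes, and 1 of them, Foxc1, in both NSC replicates, against 44.3% of all genes. The same 8 reached the mean of 1 FPKM in a cell type that was required for testing. All 8 were higher in STO cells by limma with Benjamini-Hochberg adjustment over 12292 genes, and none was lower. STO cells and NSCs differ at most genes, and 41.9% of the genes tested were called higher in STO cells. With a difference of at least 1 in log2(FPKM + 1) also required, 7 of the 8 passed, as did 17.1% of all genes tested. These 7, all but Foxc1, reached the level for testing through STO cells alone, so they could only come out higher there, and the counts are a description of the 8 genes and no more. The 2 genes that were not tested were Tbx5, listed at 0 in all 5 samples, and Tbx2, which stayed under 1 FPKM. In bulk samples such as these, fewer cells that express a gene and less RNA per cell cannot be told apart.

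**Figure D1:**
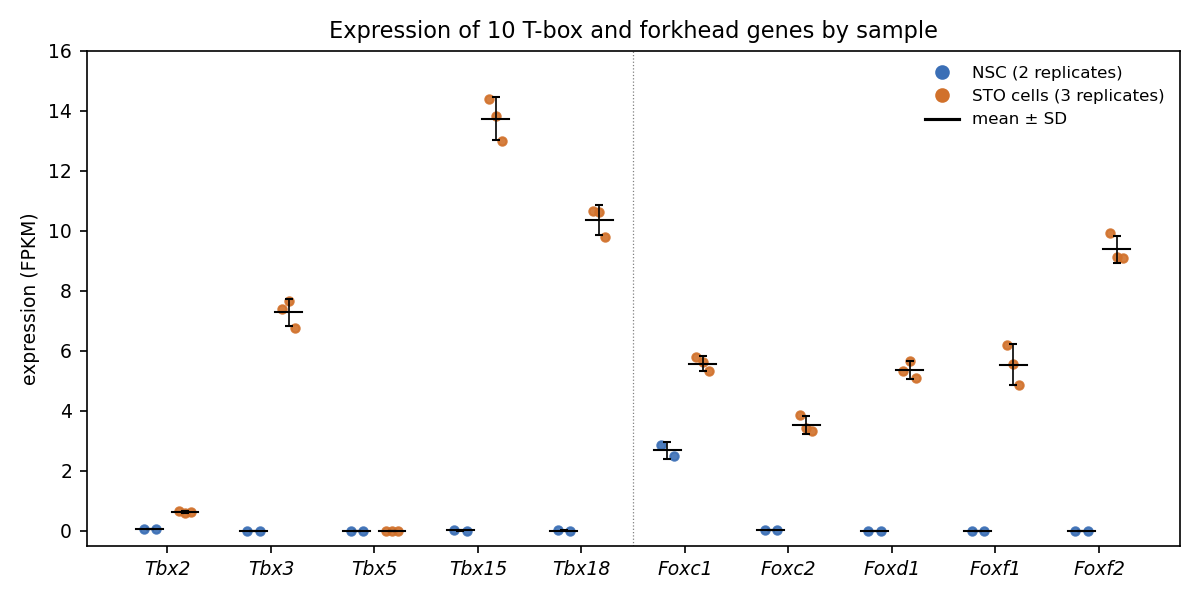
Expression in FPKM of the 10 genes, with 1 point for each replicate of NSCs (blue) and STO cells (orange), and the mean and SD as black lines. In every STO replicate 8 genes lie above 3 FPKM, Tbx2 and Tbx5 do not, and only Foxc1 lies above 1 FPKM in NSCs.

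Among the T-box genes, Tbx15 was the highest of the 10 in STO cells. Its single transcript (NM_009323, mm9 chr3:99057683-99158183, 8 exons) had 14.4, 13.8 and 12.97 FPKM in STO replicates 1, 2 and 3, and 0.018 and 0 in NSC replicates 1 and 2. The lowest STO value thus lay far above the highest NSC value. The difference was 3.87 ± 0.061 (SE) in log2(FPKM + 1), with an adjusted p of 1.9e-08 in limma, and it exceeded that of 98.1% of all genes tested. Tbx18 (NM_023814, mm9 chr9:87597635-87626095, minus strand, 8 exons) had 10.7, 10.6 and 9.79 FPKM in STO cells and 0.0068 and 0 in NSCs. Here too the groups did not overlap, with a difference of 3.50 ± 0.058 (SE) and an adjusted p of 2.2e-08 in limma. Both relatives were therefore present together in STO cells, with Tbx15 at 1.33 ± 0.025 (SD, n = 3) times the level of Tbx18, and every Tbx15 replicate was above every Tbx18 replicate.

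Tbx3 was the third T-box gene above 1 FPKM. It is represented by a pair of RefSeq transcripts with different starts (mm9 chr5:120120871-120134733), and their sum was 7.38, 7.67 and 6.77 FPKM in STO replicates 1, 2 and 3 and 0 in both NSC replicates. The difference was 3.05 ± 0.063 (SE), with an adjusted p of 5.7e-08 in limma. Of this sum, NM_198052, which starts farther upstream, made up 78.9% ± 3.9 (SD, n = 3) and NM_011535 the remaining 21.1% ± 3.9 (SD, n = 3). The share of NM_198052 lay between 75.7% and 83.2%, so it was the larger in every STO replicate; the 2 overlap over nearly their whole length, and how the authors' software divided shared fragments sets this split.

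The other T-box genes of the group were low or not seen. Tbx2 (NM_009324, mm9 chr11:85646117-85655450) is the nearest relative of Tbx3. It had 0.65, 0.60 and 0.64 FPKM in STO cells and 0.045 and 0.041 in NSCs. These values rested on 52 to 76 implied fragments per STO replicate and on 5 in each NSC replicate, and the groups did not overlap. In STO cells Tbx3 was 11.6 ± 1.13 (SD, n = 3) times as high as Tbx2. Tbx5 (NM_011537, mm9 chr5:120284672-120335227), the forelimb and heart factor, was listed at 0 in all 5 samples although its neighbour Tbx3 was at 7.27 ± 0.46 FPKM (SD, n = 3) in STO cells.

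Among the forkhead genes, Foxf2 was the highest in STO cells. Foxf2 (NM_010225, mm9 chr13:31717685-31723275, 2 exons) had 9.91, 9.12 and 9.10 FPKM in STO replicates 1, 2 and 3 and 0 in both NSC replicates. Its difference was 3.37 ± 0.057 (SE), with an adjusted p of 2.5e-08 in limma. Foxf1 (NM_010426, mm9 chr8:123608286-123612054, 2 exons) had 6.20, 5.55 and 4.85 FPKM in STO cells and 0 in NSCs. The spread of Foxf1 between STO replicates was the widest of the forkhead genes here, at 0.68 FPKM (SD, n = 3), and was small beside its difference of 2.70 ± 0.091 (SE, adjusted p = 5.5e-07 in limma). The pair was thus expressed together, Foxf2 at 1.71 ± 0.15 (SD, n = 3) times the level of Foxf1. Foxd1 (NM_008242, mm9 chr13:99124200-99126660), the stromal factor, had 5.33, 5.66 and 5.08 FPKM in STO cells and 0 in NSCs. It differed by 2.67 ± 0.056 (SE, adjusted p = 6.3e-08 in limma).

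Foxc1 was the exception among the 10 because NSCs also expressed it. Foxc1 (NM_008592, mm9 chr13:31898515-31902504, 1 exon) had 2.87 and 2.48 FPKM in NSC replicates 1 and 2 and 5.78, 5.63 and 5.31 FPKM in STO replicates 1, 2 and 3. The STO replicates were all above the NSC replicates, and their mean was 2.08 times as high. The difference of 0.84 ± 0.068 (SE, adjusted p = 4.1e-05 in limma) was larger than the spread between replicates, and smaller than the differences of the other 7 genes tested. The NSC values of Foxc1 rested on 353 and 337 implied fragments. The next gene in the order of NSC levels was Tbx2 at 0.043 FPKM, and its replicates did not overlap those of Foxc1. The paralog Foxc2 (NM_013519, mm9 chr8:123640071-123642794, 1 exon) had 0.012 and 0.021 FPKM in NSCs, on 1 and 2 implied fragments. In STO cells Foxc2 had 3.86, 3.41 and 3.31 FPKM. It was thus the lowest of the 8 genes there, and its difference was 2.15 ± 0.065 (SE, adjusted p = 3.2e-07 in limma).

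Foxc1 is a known marker of meninges and pericytes, which can accompany a cortical preparation. Of 10 markers of such cells, Abcc9, Vtn, Dcn and Lum were listed at 0 in both NSC replicates, and Rgs5, Kcnj8, Crabp2 and Aldh1a2 had at most 0.25 FPKM. Cspg4 (24.8 and 26.3 FPKM) and Zic1 (20.4 and 16.6 FPKM) were expressed in NSCs. These 2 made up nearly all of the summed level of the list, which was 45.8 and 43.4 FPKM in the NSC replicates. Of the 8 fibroblast markers, 1 was at 1 FPKM or more in both NSC replicates, Fn1 (4.09 and 3.80 FPKM). Of 33 regional factors of mesenchyme, 2 were, Prrx1 (5.96 and 5.34 FPKM) and Prrx2 (1.13 and 1.16 FPKM). The NSCs also carried the oligodendrocyte lineage markers Pdgfra, Sox10 and Mbp, at 30.1 to 30.4, 8.66 to 10.2 and 83.4 to 88.3 FPKM. Pdgfra was higher in STO cells, at 344 to 355 FPKM, while Sox10 and Mbp were lower there. Foxc2 and Foxd1 were at 0.021 FPKM or less in the same libraries. The part of other cells in the Foxc1 level of NSCs was not tested.

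**Figure D2:**
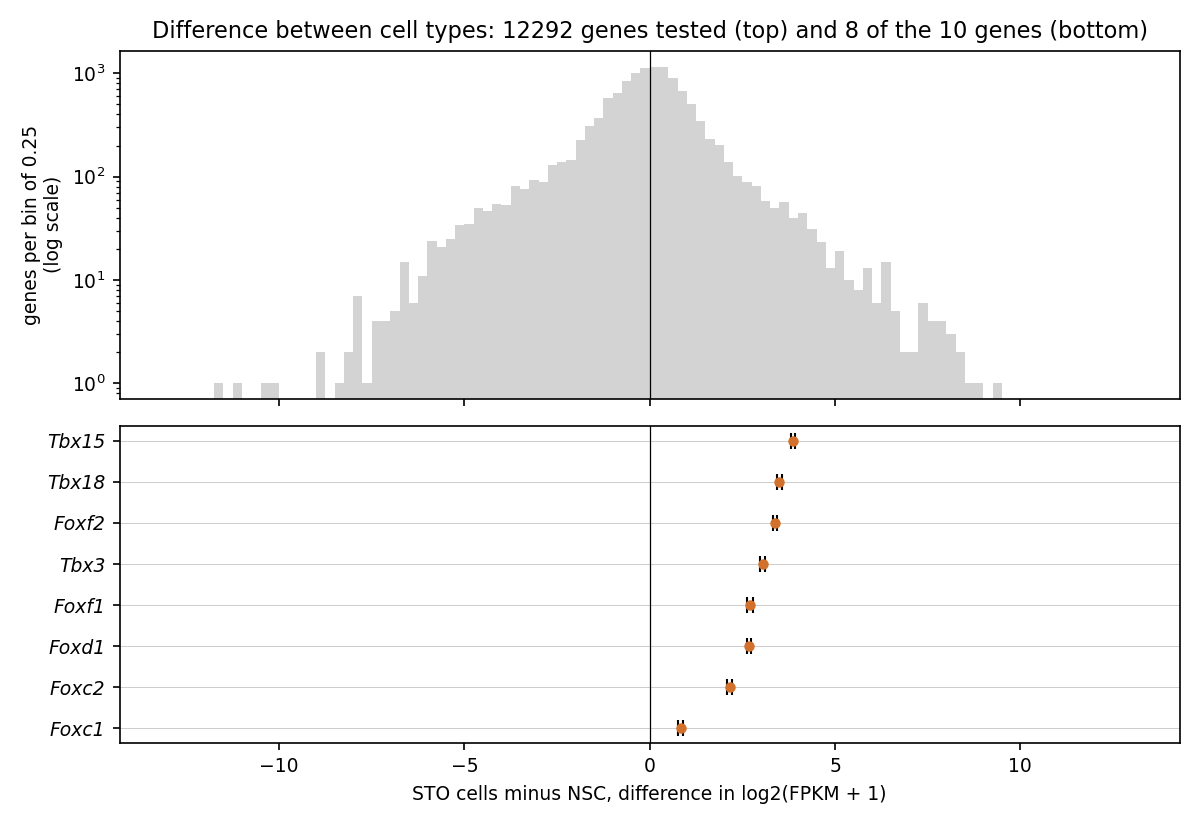
Difference between STO cells and NSCs in log2(FPKM + 1). The upper panel counts all 12292 genes tested on a log scale, and the lower panel gives the 8 tested genes with their SE; Foxc1 lies at 0.84 and the other 7 between 2.15 and 3.87.

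Of the 10 genes, Tbx3, Foxd1, Foxf1 and Foxf2 were listed at 0 in both NSC replicates with a mean of at least 1 FPKM in STO cells, a pattern of 1.43% of all genes tested. With the bound at under 0.1 FPKM in each NSC replicate, Tbx15, Tbx18 and Foxc2 joined them, against 2.82% of all genes tested. A listed 0 is not proof of absence. With the depth implied by the deposited intervals, 3 fragments of these 4 genes would have been worth 0.029 to 0.041 FPKM in the NSC libraries, a limit that covers counting error only. In STO cells the order of mean levels was Tbx15, Tbx18, Foxf2, Tbx3, Foxc1, Foxf1, Foxd1, Foxc2, Tbx2 and Tbx5. Replicates of Tbx18 and Foxf2 overlapped, as did those of Foxc1 and Foxf1 and those of Foxf1 and Foxd1, so these neighbours in the order were not separated beyond their spread. None of the 10 was abundant: Tbx15 was above 48.9% of the genes with a mean of at least 1 FPKM in STO cells, and Foxc2 above 13.8%.

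Promoter sequences were at hand for Foxc1, Foxd1, Foxf2 and Tbx18, and they are shown to compare the start region of the gene seen in both cell types, Foxc1, with those of genes near 0 in NSCs. Each is the 250 bases before the RefSeq start, 5′ to 3′ on the gene's own strand, in GRCm38.p6, a build whose coordinates differ from those of mm9. Capitals mark CG dinucleotides, the sites of DNA methylation. The windows are chr13:31806396-31806645 (plus strand) for Foxc1, chr13:98353995-98354244 (plus) for Foxd1, chr13:31625566-31625815 (plus) for Foxf2 and chr9:87731261-87731510 (minus) for Tbx18.
Foxc1: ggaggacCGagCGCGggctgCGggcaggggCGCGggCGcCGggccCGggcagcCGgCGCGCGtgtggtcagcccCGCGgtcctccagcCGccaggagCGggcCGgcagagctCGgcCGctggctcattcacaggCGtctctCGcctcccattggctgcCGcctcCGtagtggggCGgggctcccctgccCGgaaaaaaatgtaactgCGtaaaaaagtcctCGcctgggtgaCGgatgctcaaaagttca
Foxf2: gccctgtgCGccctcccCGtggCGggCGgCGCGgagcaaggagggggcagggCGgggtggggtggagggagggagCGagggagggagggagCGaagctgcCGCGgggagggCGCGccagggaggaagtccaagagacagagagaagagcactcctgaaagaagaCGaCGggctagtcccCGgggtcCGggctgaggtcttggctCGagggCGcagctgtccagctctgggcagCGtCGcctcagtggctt
Tbx18: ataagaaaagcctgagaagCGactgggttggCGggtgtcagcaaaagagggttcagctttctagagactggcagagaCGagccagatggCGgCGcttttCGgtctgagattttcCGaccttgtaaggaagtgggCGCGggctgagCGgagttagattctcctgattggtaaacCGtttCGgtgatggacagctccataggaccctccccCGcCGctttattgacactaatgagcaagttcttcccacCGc
Foxd1: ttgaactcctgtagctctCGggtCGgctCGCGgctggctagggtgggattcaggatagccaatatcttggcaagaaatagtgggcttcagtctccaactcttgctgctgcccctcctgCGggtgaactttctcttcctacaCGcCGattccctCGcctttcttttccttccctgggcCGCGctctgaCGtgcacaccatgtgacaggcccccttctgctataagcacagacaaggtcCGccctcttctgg

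The Foxc1 window held 29 CG dinucleotides and a GC content of 70.8%. Foxf2, listed at 0 in NSCs, held 21 with a GC content of 71.6%, Tbx18 held 15 with 54.0%, and Foxd1 held 12 with 57.2%. The median of all 32851 windows in the table was 6 CG dinucleotides and 52.4% GC, so all of the 4 lay above it, and Foxc1 above 93.2% of windows. The letters GTAAACA, a site known for forkhead factors, and GGTGTGA, a part of the T-box site, were searched on both strands. They were in none of the 4 windows, against 3.17% and 3.33% of all windows.

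Of the 10 genes, 6 lie in pairs on a chromosome, and the members of a pair were not always expressed alike. On chromosome 8, Foxf1 and Foxc2 are 28.0 kb apart with Mthfsd between them. Fendrr, a long noncoding RNA gene known to be transcribed away from Foxf1, lies 1.27 kb from it, and Foxl1, another forkhead gene of gut mesenchyme, lies 8.79 kb beyond Foxc2. Fendrr had 7.06, 6.10 and 6.15 FPKM in STO cells and 0.013 and 0 in NSCs. It thus had the on and off pattern of Foxf1, with a difference of 2.88 ± 0.071 (SE, adjusted p = 1.3e-07 in limma), and in STO cells Foxf1 was at 0.86 ± 0.063 (SD, n = 3) of the level of Fendrr. Foxl1 had 1.24, 0.93 and 1.14 FPKM in STO cells and 0 in NSCs, a difference of 1.07 ± 0.070 (SE, adjusted p = 1.4e-05 in limma). Mthfsd, which encodes a folate enzyme-like protein, was expressed in both cell types, at 5.40 ± 0.56 FPKM in NSCs (SD, n = 2) and 11.5 ± 0.87 in STO cells (SD, n = 3).

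On chromosome 13, Foxf2 and Foxc1 are 175 kb apart, and in NSCs Foxf2 was at 0 while Foxc1 was expressed. Foxq1, the third forkhead gene of this cluster, lies 64.8 kb from Foxf2 and had at most 0.063 FPKM in any sample. Gmds, beyond Foxc1, had 9.98 ± 0.27 FPKM in NSCs (SD, n = 2) and 14.0 ± 1.28 in STO cells (SD, n = 3), and was called higher in STO cells. Tbx3 and Tbx5 are 150 kb apart on chromosome 5 and differed in STO cells as given above. On chromosome 11, Tbx4, the hindlimb relative of Tbx5, lies 48.1 kb from Tbx2 and was listed at 0 in all 5 samples. Beside the isolated genes, Nt5e, to one side of Tbx18 at 596 kb, went the other way, with 7.71 and 8.07 FPKM in NSCs and at most 0.076 in STO cells, and Wars2, 33.6 kb from Tbx15, was lower in STO cells by 0.39 ± 0.061 (SE, adjusted p = 0.0011 in limma). Of the 19 listed neighbours that were tested, 11 were higher in STO cells, 5 were lower and 3 passed in neither direction. Over all genes tested, 41.9% were higher and 43.7% lower. Fendrr, Foxl1 and Tmem171, listed for Foxd1, reached the level for testing through STO cells alone, and Nt5e through NSCs alone. This fixed their direction. The lower call of Bcas3, beside Tbx2 (-0.21), was lost without NSC replicate 2 (adjusted p = 0.067 in limma). Besides Fendrr, Foxl1 and Nt5e, those with a difference of at least 1 were Med13l (1.96), Cep162 (1.36), Utp15 (1.05) and Ankra2 (-1.64). All but Ankra2, near Foxd1, were higher in STO cells. Cep162 lies 447 kb from Tbx18. Med13l was listed for Tbx3 and Tbx5 but is not next to them, and other genes lie closer, such as Gm16063 at 36.4 kb from Tbx3.

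**Figure D3:**
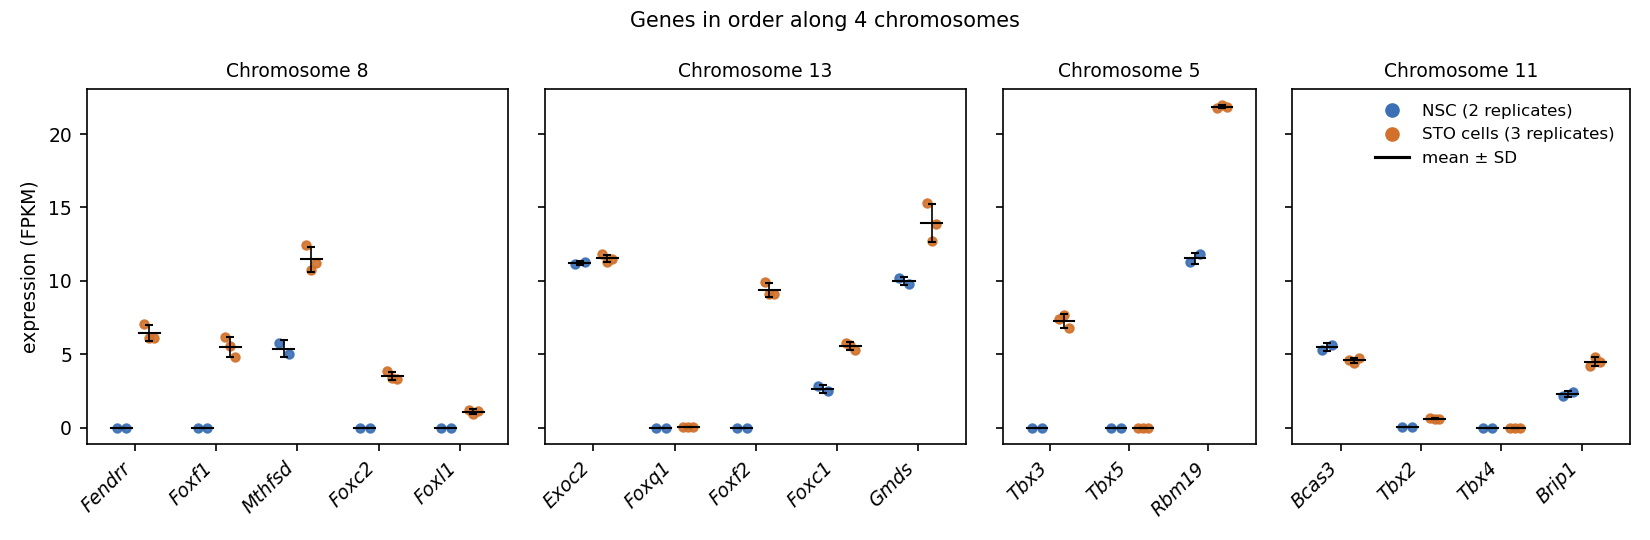
Expression in FPKM of genes in their order along chromosomes 8, 13, 5 and 11, with 1 point per replicate of NSCs (blue) and STO cells (orange) and the mean and SD in black; spacing is not to scale. Fendrr, Foxf1, Foxc2 and Foxl1 are near 0 in NSCs and up to 7.06 FPKM in STO cells, Mthfsd is expressed in both, and Tbx5 and Tbx4 are at 0 beside Tbx3 and Tbx2.

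The rest of both families differed between the groups less evenly. Of the 12 other T-box genes, 5 were at 0 in every sample, and only Mga, which encodes a large MAX partner with a T-box, reached the level for testing. Mga had 6.10 and 6.77 FPKM in NSCs and 9.86 to 10.7 in STO cells. It was higher in STO cells by 0.60 ± 0.066 (SE, adjusted p = 0.00018 in limma). Tbr1 and Eomes, T-box factors of cortical neurons and their precursors, were at most 0.015 FPKM in NSCs. Tbr1 had 0.33, 0.24 and 0.20 FPKM in STO cells, above both NSC replicates, on 25 to 30 implied fragments, and was too low to be tested (without the filter, 0.32 ± 0.049 (SE), adjusted p = 0.0022 in limma). T-box expression in NSCs was therefore almost all Mga, while STO cells had Tbx15, Tbx18 and Tbx3 besides.

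Of the 39 other forkhead genes, 18 were tested, of which 9 were higher in STO cells, 5 were lower and 4 passed in neither direction, beside 41.9% higher and 43.7% lower over all genes tested. Foxd2 and Foxl1 reached the level for testing through STO cells alone, and Foxj1 and Foxr2 through NSCs alone, which fixed their direction. Another 11 were at 0 in every sample. Those higher by at least 1 were Foxp4 (2.35), Foxp1 (2.47), Foxd2 (2.21), Foxj3 (1.70) and Foxl1. Foxd2, a relative of Foxd1 in mesenchyme, had 3.83, 3.69 and 3.44 FPKM in STO cells and 0.012 and 0 in NSCs. Foxp1 and Foxp4, broadly expressed repressors, were present in both, Foxp1 at 1.23 ± 0.10 FPKM in NSCs (SD, n = 2) and 11.4 ± 1.09 in STO cells (SD, n = 3). Those lower by at least 1 were Foxj1 and Foxr2. Foxj1, the regulator of motile cilia, had 7.14 and 7.34 FPKM in NSCs and 0.18 to 0.24 in STO cells, a difference of -2.77 ± 0.048 (SE, adjusted p = 2.6e-08 in limma). Foxr2 had 1.27 and 1.13 FPKM in NSCs and 0 in STO cells. The FoxO genes Foxo1, Foxo3 and Foxo4, known from insulin signaling, had differences of -0.11, -0.030 and 0.16 and did not pass the test. The calls of Foxk1 (0.33) and Foxn3 (-0.44) were lost when either NSC replicate was left out, with adjusted p up to 0.090 and 0.13 in limma.

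**Figure D4:**
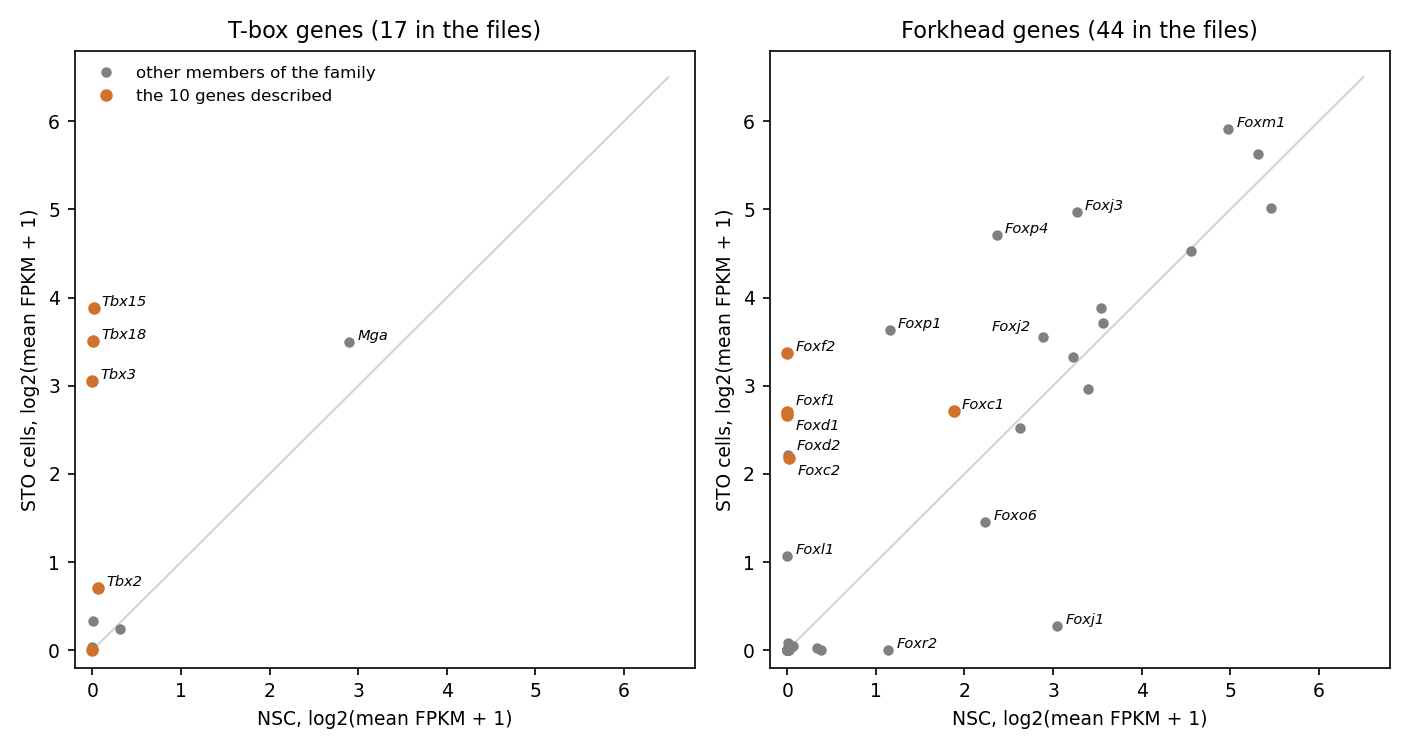
Mean level in STO cells against mean level in NSCs, both as log2(mean FPKM + 1), for 17 T-box genes (left) and 44 forkhead genes (right); the 10 genes described are orange, the others grey, and the line marks equal levels. Names are given where the levels differ by over 0.5. Of the orange points, 7 lie along the left edge, with almost no expression in NSCs, and Foxc1 lies to their right; Tbx2 and Tbx5 lie near the origin, and Foxj1 and Foxr2 lie far below the line.

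Genes known as targets, signals or partners of these factors were called in both directions, as genes were in general. Of 19 listed, 13 were tested, with 6 higher and 5 lower in STO cells, shares near the 41.9% and 43.7% of all genes tested. Fgf10 and Gli3 reached the level for testing through STO cells alone, and Gja5 through NSCs alone, which fixed their direction. Fgf10, an FGF of limb and lung mesenchyme and a known target of TBX5, had 3.18, 3.77 and 3.39 FPKM in STO cells and 0 in NSCs, in cells where Tbx5 itself was at 0. Its difference was 2.15 ± 0.066 (SE, adjusted p = 3.6e-07 in limma). Of the cell cycle inhibitors that TBX2 and TBX3 are known to repress, Cdkn1a and Cdkn2b were lower in STO cells and Cdkn2a did not pass the test. Cdkn2a had 39.8 ± 3.35 FPKM in NSCs (SD, n = 2) and 36.3 ± 1.95 in STO cells (SD, n = 3), a difference of -0.13 ± 0.075 (SE, adjusted p = 0.15 in limma). Cdkn1a was lower in STO cells by 1.26 ± 0.062 (SE, adjusted p = 3.3e-06), with 262 and 249 FPKM in NSCs and 101 to 110 in STO cells, and Cdkn2b was lower by 2.30 ± 0.085 (SE, adjusted p = 8.7e-07). The gap junction genes Gja1 and Gja5, linked to TBX2, TBX3 and TBX5 in the heart, differed by 1.26 and -1.10; the call of Gja5 was lost with quantile normalization (adjusted p = 0.055 in limma).

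Genes of the Hedgehog pathway, the known input to Foxf1 and Foxf2, gave no single direction either. Gli3, a transcription factor of the pathway, rose in STO cells by 3.63 ± 0.11 (SE, adjusted p = 2.8e-07 in limma), from at most 0.16 FPKM in NSCs to 11.1 to 14.0. Ptch1, both receptor and target, was lower there, with 4.59 to 4.78 FPKM against 17.7 and 17.2 in NSCs. The target Gli1 had 0.36 to 0.41 FPKM in STO cells and at most 0.055 in NSCs, and Hhip had 0.063 to 0.081 in STO cells and 0.75 and 0.68 in NSCs; both were too low to be tested. The Groucho corepressors, partners of T-box factors such as TBX15 and TBX18, differed in direction. Tle1 and Tle2 were higher in STO cells by 0.43 ± 0.073 (SE, adjusted p = 0.0015 in limma) and 0.54 ± 0.076 (SE, adjusted p = 0.00060). Tle4 was lower in STO cells at -2.52 ± 0.076 (SE, adjusted p = 3.4e-07 in limma) and Tle3 did not pass the test at -0.026 ± 0.071 (SE, adjusted p = 0.75).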

How the data were processed

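Total RNA of 2 NSC and 3 STO samples, grouped by their labels, was made into stranded mRNA libraries. The authors trimmed the reads, aligned them to mm9 with HISAT2 and deposited FPKM values from Cufflinks 2.2.1 on the RefSeq annotation, with lower and upper bounds also in FPKM, for 40201 transcripts. No read counts were used. Identifiers were given symbols through a RefSeq table of GRCm38.p6 (99.4% matched), used for names only. Transcripts of a symbol with overlapping loci were summed. Implied fragments were computed by taking the distance from a value to its upper bound as 2 Poisson standard deviations. They are too few where a bound also holds other uncertainty, such as that of dividing fragments between transcripts. Exon counts came from GENCODE for mm9.

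Cell types were compared with limma 3.58.1 in R 4.3.3 (eBayes with a trend, two-sided) on log2(FPKM + 1) over genes with a mean of at least 1 FPKM in either cell type; p-values were adjusted after Benjamini and Hochberg and called under 0.05. Differences on this scale understate the change of low genes. The fit was tested on simulated data. Named were the 10 genes, genes of 2 family lists, neighbours and linked genes with a difference of at least 1, and markers; others are named where a count of few genes or a contrast with a member rests on them, and were chosen after their values were seen. The 10 genes and all lists were chosen with earlier results of these data known. Some genes of the lists are not reported here by name.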

Additional observations from a re-analysis of the deposited data

How the results depend on the processing

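All 8 tested genes stayed higher in STO cells, with an adjusted p under the threshold, in every one of the 13 alternatives: a pseudocount of 0.1, no filter, quantile normalization, median-ratio scaling, no trend, other ways of summing transcripts, each replicate left out and the replicate number as a block. With 1 replicate left out, Foxc1 differed by 0.76 to 0.92 and Foxf1 by 2.63 to 2.78, and the largest adjusted p of the 8 genes was 0.0022 (limma), for Foxc1. Where an NSC replicate was left out, the lone sample was assumed to vary like the STO cells. In each setting with the filter, the 7 genes other than Foxc1 were tested because of their level in STO cells alone. Only the direction of Foxc1 was thus open there. Same-numbered replicates were not shown to be paired: their deviations from the group means had correlations of 0.011 and 0.060, and with 2 NSC samples these are not independent. STO replicate 3 has no NSC sample of the same number, so a replicate block leaves it out of the difference. The block fit thus gave the same differences as the fit without STO replicate 3 and was no separate check of their size. The block fit had the same 8 of the 10 genes higher and 0 lower, with Foxc1 at 0.87, and 4994 genes higher and 5252 lower over all genes tested. Dropping the filter or the trend leaves each difference as it was and changes only its SE and p-value. Without the filter, Tbx2 was tested as well and differed by 0.64 ± 0.026 (SE, adjusted p = 8.9e-06 in limma). This rested on 5 implied fragments in each NSC replicate and 52 to 76 in each STO replicate. It made 9 of the 10 genes higher, beside 5919 of the 17724 genes tested in that setting. The size of a difference from a level near 0 depended on the pseudocount: with 0.1, the 7 genes other than Foxc1 differed by 4.96 to 6.99. Foxc1 passed a difference of 1 with the pseudocount of 0.1 (1.03) and with quantile normalization (1.02). Scaling moved the median difference of all genes from -0.023 to between -0.074 and 0.037. The files hold no counts, so precision at low levels rests on implied fragments, and genes at 0 cannot be ordered.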

Other observations

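Regional transcription factors of mesenchyme outside both families were also expressed in STO cells, as a partial set. Of 33 listed, 14 were tested. These 14 were called higher in STO cells by at least 1 in log2(FPKM + 1), as were 17.1% of all genes tested. All but Prrx1 and Prrx2 reached the level for testing through STO cells alone, which fixed their direction, so the count is a description. Twist2 and Osr1 were the highest, with 95.3 to 104 and 78.9 to 81.3 FPKM in STO cells and 0 in NSCs. Osr2 (7.26 to 8.20 FPKM), Shox2, a limb and palate factor (9.77 to 11.8), Gata4 (4.06 to 4.80) and Pax9 (3.96 to 4.01) lay in the range of the T-box and forkhead genes. The heart and limb factors Hand1, Hand2, Nkx2-5, Pitx1 and Tcf21 had at most 0.040 FPKM in any sample. NSCs expressed Prrx1 and Prrx2 at 1 FPKM or more, Prrx1 at 5.96 and 5.34 FPKM against 57.3 to 66.4 in STO cells.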
